A study of Homo sapiens with 6 samples.

Results

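RNA polymerase II and the Mediator complex were read in nascent RNA as 48 protein-coding genes, chosen by name from the 58243 gene identifiers counted. The members are the genes whose symbol is POLR2 followed by a letter (15 genes) or MED followed by a number, together with CDK8, CDK19 and CCNC (33 Mediator genes in all). All 48 passed the low-count filter, among 23884 genes tested. The members were grouped into the catalytic large subunits (POLR2A and POLR2B), 10 small subunits (POLR2C to POLR2L), 3 paralogs or associated proteins (POLR2J2, POLR2J3 and POLR2M), and the head, middle, backbone, tail and kinase modules of Mediator.

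RNA polymerase II transcribes protein-coding genes. Its large subunits RPB1 and RPB2, encoded by POLR2A and POLR2B, form the active centre, and the small subunits assemble around them. Several small subunits are also built into RNA polymerases I and III. Mediator bridges transcription factors and the polymerase: its head and middle modules contact the polymerase, MED14 runs through the complex as a backbone, the tail receives activators, and a separable kinase module built on CDK8 or CDK19 with cyclin C binds reversibly.

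The samples were 6 libraries of A375, a human melanoma cell line, stably transfected with an empty vector (EV, 3 libraries) or a PRL3 plasmid (3 libraries). The plasmid expressed human PRL3, a phosphatase encoded by PTP4A3, fused to an HA tag. Both lines were kept in hygromycin and pulsed with 500 µM 4-thiouridine (4sU) for 20 min, which tags newly made RNA for purification (4sU-seq). The study asked whether PRL3 alters transcriptional elongation. Whether each line was a single clone, and whether the libraries of a group came from separate cultures, was not stated in the sources used here, so p-values measure only the spread between these libraries.

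PTP4A3 was read at 161 to 279 normalized counts in the EV libraries and at 22065 to 28767 in the PRL3 libraries, in the direction of the labels. Reads assigned to genes numbered 47158709 to 57952035 per EV library and 36532207 to 56511290 per PRL3 library. Of the reads aligned to 1 place, 33.3% ± 6.75 in EV and 66.3% ± 3.18 in PRL3 lay outside annotated exons (SD, n = 3). This share moved with every comparison below, and its part in them was not tested. Of 9 melanocyte-lineage markers, 4 (SOX10, MITF, S100B and PAX3) averaged at least 100 normalized counts, while MLANA, TYR, TYRP1 and DCT had at most 20 reads in every library. The summed level of the 9, most of it SOX10, was 24828 to 34056 in EV and 15317 to 19044 in PRL3. SOX10 and S100B (2342 to 3164 in EV, 1053 to 1121 in PRL3) were lower in every PRL3 library, whereas PAX3 (1175 to 1342, 1786 to 2110) and MITF (1208 to 1492, 1714 to 1809) were higher in every one. Of the markers of other cell types, 1 of 4 epithelial (KRT14; list sum 1095 to 1228 in EV, 385 to 633 in PRL3), 0 of 4 blood (20.9 to 34.1 and 37.1 to 62.2) and 1 of 3 endothelial markers (KDR; 225 to 396 and 322 to 378) reached 100.

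Across the whole table, 22.7% of genes tested were lower in PRL3 and 20.0% were higher at an adjusted p under 0.05 (edgeR quasi-likelihood test, adjusted by Benjamini-Hochberg). Among the 14443 protein-coding genes, the class to which the members belong, the shares were 31.6% lower and 15.2% higher, and among the other genes they were 9.06% and 27.5%. Of the 48 members, 19 fell, 12 rose and 17 did not pass the test, with a median log2 fold change of -0.32 beside -0.15 for protein-coding genes and 0.11 for all genes. The split depended on the scaling: 15 were lower and 15 higher with upper-quartile scaling, 11 and 19 with library size alone, and 27 and 4 with all uniquely aligned reads as the depth. All 3 PRL3 libraries lay below all 3 EV libraries for 24 members and above them for 13, beside 36.7% and 22.2% of protein-coding genes. In bulk libraries fewer cells making an RNA and less of it made per cell cannot be told apart. The reads compared here lie in exons. The study based its later analysis on intronic reads, to avoid possible effects of splicing during transcription or of carried-over mRNA. The part of these in the values here was not tested.

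The members split by class. Both large subunits and 8 of 10 small subunits of the polymerase fell, and none of these 12 rose. All 3 paralog or associated genes rose, though POLR2M did not pass with all uniquely aligned reads as the depth. Of the 33 Mediator genes, 9 were lower (27.3%), 9 higher (27.3%) and 15 not past the threshold. That even split depended on the scaling: 12 were lower and 8 higher with RLE, 5 and 12 with upper-quartile scaling, 3 and 16 with library size alone, and 16 and 2 with all uniquely aligned reads. The median log2 fold change was -0.82 for the large subunits, -1.42 for the small subunits and 1.34 for the paralogs and associated gene. It was -0.40 in the head module, 0.33 in the middle, -0.39 in the tail and 0.06 in the kinase module. With other scalings the polymerase medians stayed below 0 (small subunits -0.93 with library size alone, -1.91 with all uniquely aligned reads), whereas the head and tail medians turned to 0.10 with library size alone, and the middle and kinase medians to -0.15 and -0.42 with all uniquely aligned reads. Measured from the median of all genes, which the scaling also moves, the small subunits lay between -1.54 and -1.53 and the middle module between 0.22 and 0.23 across the other 4 scalings. The reference matters: in a fit of protein-coding genes alone, measured from their own median, the small subunits lay at -1.27 and the middle module at 0.49.

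**Figure D1:**
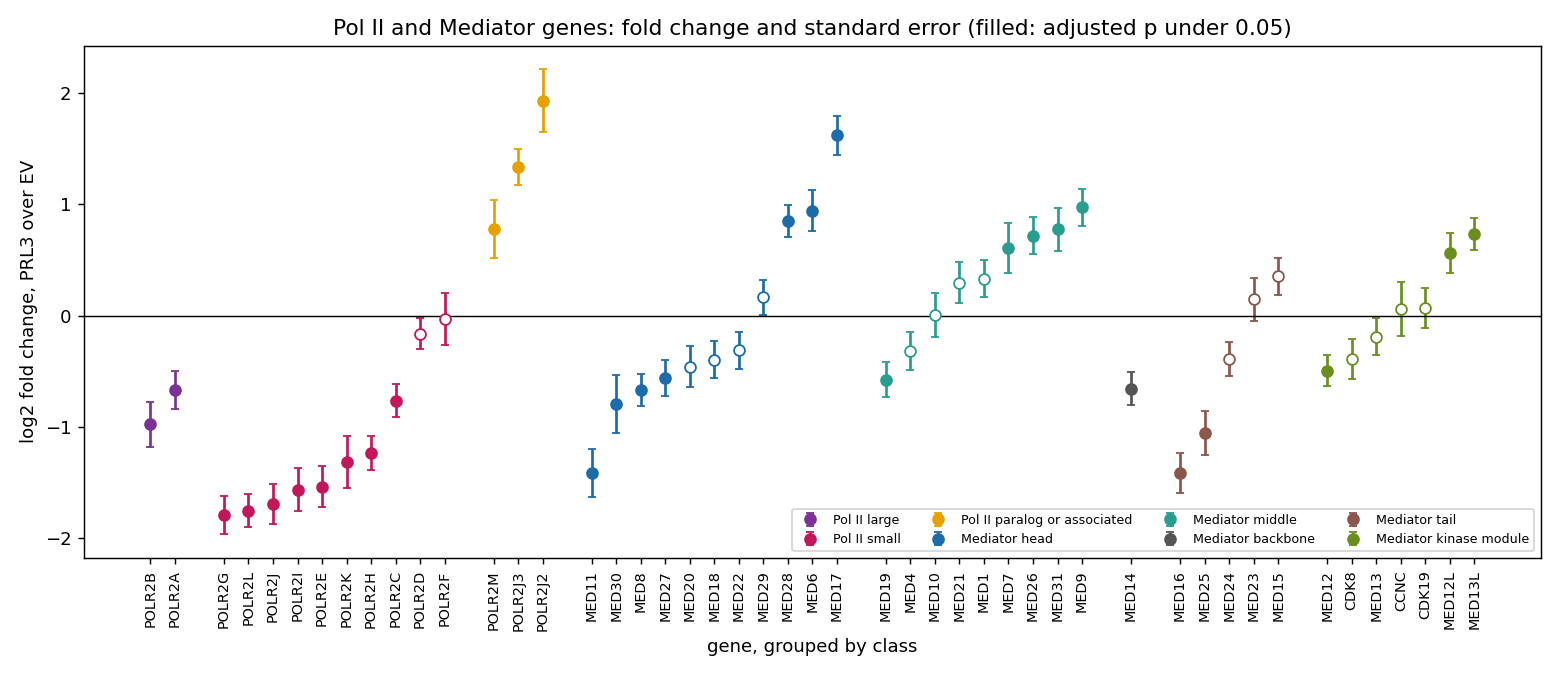
Log2 fold change (PRL3 over EV, y axis) of each of the 48 members (x axis, grouped and coloured by class); bars are the standard error of the edgeR fit, and filled points have an adjusted p under 0.05. The small polymerase subunits sit below 0, down to -1.79 for POLR2G, while the paralogs sit above it and Mediator members lie on both sides (library size alone moves the head and tail medians to 0.10).

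Promoter sequence is shown for 5 polymerase genes that behaved differently, so that a subunit that fell strongly (POLR2L, POLR2E), 1 that did not pass the test (POLR2D), the catalytic subunit (POLR2A) and a paralog that rose (POLR2J2) can be read side by side. Each line holds the 100 bases before the RefSeq start site, 5′ to 3′ on the gene's strand (GRCh38.p14), at chr11:842530-842629 (minus strand), chr19:1095376-1095475 (minus), chr2:127858156-127858255 (minus), chr17:7484266-7484365 (plus) and chr7:102671664-102671763 (minus) in that order. Annotated exons of any transcript covered 5 bases of the POLR2E line and 0 of the others. Capitals mark GGGCGG on either strand, the GC box bound by SP-family factors, and CCGGAAG on either strand, a core of ETS-family sites.
POLR2L: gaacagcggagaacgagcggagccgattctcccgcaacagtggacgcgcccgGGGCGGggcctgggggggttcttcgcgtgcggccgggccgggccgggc
POLR2E: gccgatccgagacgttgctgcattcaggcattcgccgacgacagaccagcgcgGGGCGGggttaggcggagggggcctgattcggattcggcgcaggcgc
POLR2D: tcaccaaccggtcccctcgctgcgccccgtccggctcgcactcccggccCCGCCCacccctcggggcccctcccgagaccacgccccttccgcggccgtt
POLR2A: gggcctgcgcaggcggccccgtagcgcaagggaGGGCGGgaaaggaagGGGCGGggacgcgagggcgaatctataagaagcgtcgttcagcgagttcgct
POLR2J2: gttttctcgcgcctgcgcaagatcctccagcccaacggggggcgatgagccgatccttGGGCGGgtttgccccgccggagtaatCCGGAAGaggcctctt

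GGGCGG began at base -48 in POLR2L, -47 in POLR2E, -51 in POLR2D, -67 and -52 in POLR2A and -42 in POLR2J2, counting the start site as 0. These 5 genes were picked for unlike behaviour, so its presence in all of them is no guide to the other members. In windows of 300 bases (250 before and 50 after the start), which RefSeq gave for 35 of the 48 members, 4 of 6 small-subunit genes, 2 of 2 large-subunit genes, 2 of 2 paralog or associated genes and 16 of 25 Mediator genes held GGGCGG in at least 1 window, beside 48.3% of 27305 genes and 45.0% of all 35116 windows. CCGGAAG was in the windows of 3 of 6 small-subunit genes (POLR2C, POLR2D and POLR2F), 0 of 2 large-subunit genes, 2 of 2 paralog or associated genes and 7 of 25 Mediator genes, beside 12.2% of genes and 10.3% of all windows. Of the small-subunit genes with a window, POLR2C, which fell, and POLR2F, which did not pass the test, held no GGGCGG. These shares are descriptions and were given no test.

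The large subunits fell. POLR2A encodes RPB1, the largest subunit, whose C-terminal repeat is phosphorylated during transcription, and lies on chromosome 17 at 7484366 to 7514616 (GRCh38, plus strand, ENSG00000181222). It had 15768, 20357 and 14207 normalized counts in EV and 9341, 11604 and 10710 in PRL3. Every PRL3 library was below every EV library. The fall was 1.59-fold (log2 fold change -0.67, SE 0.17, edgeR adjusted p = 0.00625; exact permutation p = 0.1, the smallest that 3 against 3 libraries allow), and with library size alone it did not pass (-0.17, adjusted p = 0.331). POLR2B, which encodes RPB2 on chromosome 4 at 56977722 to 57031158 (plus strand, ENSG00000047315), had 13409, 8293 and 7863 in EV and 4490, 5033 and 5515 in PRL3. The groups did not overlap here either, and EV library B1 stood above the other 2 EV libraries. The log2 fold change was -0.98 (SE 0.20, edgeR adjusted p = 0.00163).

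The strongest falls among the small subunits were in POLR2G and POLR2L. POLR2G encodes RPB7, which with RPB4 forms the stalk, and lies on chromosome 11 at 62761565 to 62766710 (plus strand, ENSG00000168002). Its normalized counts were 6869, 7260 and 5524 in EV and 1655, 2215 and 1804 in PRL3. The highest PRL3 library was thus far under the lowest EV library, a 3.46-fold fall (log2 fold change -1.79, SE 0.17, edgeR adjusted p = 1.18e-05). POLR2L, on the same chromosome at 837356 to 842529 (minus strand, ENSG00000177700), encodes RPB10, a small zinc-binding subunit shared with polymerases I and III. It had 6203, 6803 and 6303 in EV and 1703, 2055 and 1985 in PRL3, with tight and separate groups. The fall was 3.36-fold (log2 fold change -1.75, SE 0.15, edgeR adjusted p = 8.62e-06).

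Of the other small subunits, 6 fell. They were POLR2J (RPB11; log2 fold change -1.69), POLR2I (RPB9; -1.56), POLR2E (RPB5, shared; -1.53), POLR2K (RPB12, shared; -1.31), POLR2H (RPB8, shared; -1.23) and POLR2C (RPB3; -0.76), with edgeR adjusted p from 1.76e-05 to 0.00109. RPB3 and RPB11 form the heterodimer on which assembly starts, and their genes fell by unlike amounts. POLR2C was the exception among these 6 under another scaling, since it did not pass with library size alone (-0.27, adjusted p = 0.103). The subunits shared with polymerases I and III and those not shared had like counts, 4 of 5 lower in each set, with medians of -1.31 and -1.56.

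POLR2D and POLR2F did not pass the test. POLR2D encodes RPB4, the partner of RPB7 in the stalk. It had 2969, 2725 and 2739 normalized counts in EV and 2651, 2418 and 2460 in PRL3 (log2 fold change -0.16, SE 0.14, edgeR adjusted p = 0.379). Its groups did not overlap, though they were close, so the genes of the stalk pair gave unlike values, -0.16 and -1.79. POLR2F, which encodes the shared subunit RPB6, had 233, 298 and 356 in EV and 298, 289 and 283 in PRL3 (-0.03, SE 0.24, adjusted p = 0.931), and these groups overlapped. It was also the least read of the 12 per length of exon, at 42.2 ± 8.78 normalized counts per kb in EV (SD, n = 3) over the union of exons and 143 ± 29.7 over the canonical transcript. The exons under which its reads were counted, those of the earlier annotation, were not examined here, so its level and its missed test are uncertain. Both values changed sign with upper-quartile scaling (0.02 and 0.14) and library size alone (0.33 and 0.46).

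**Figure D2:**
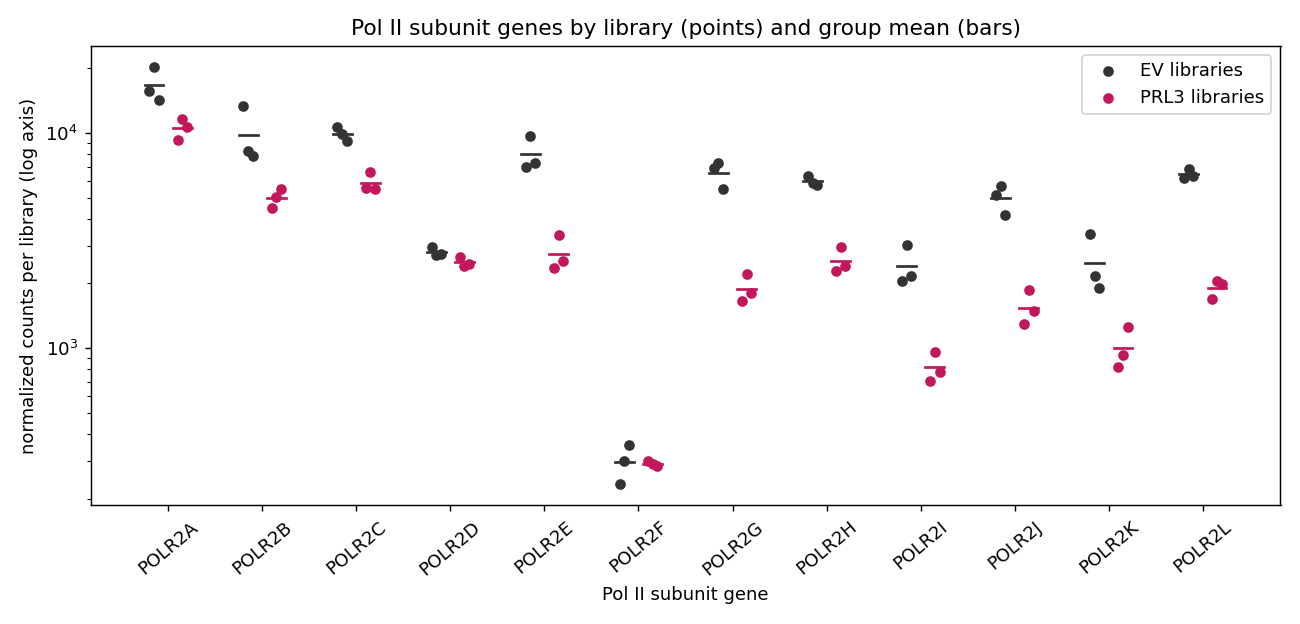
Normalized read counts (y axis, log scale) of the 12 large and small polymerase subunits, with 1 point per library (EV dark, PRL3 red) and the group mean as a short bar. POLR2G, POLR2L and POLR2J show PRL3 libraries far below EV libraries, POLR2D shows close groups, and POLR2F overlaps.

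Per kb of exon, levels of the 12 subunits can be compared between genes, but the order depends on which exons set the length. Over the union of all annotated exons, POLR2L (5716 ± 285 normalized counts per kb) and POLR2J (5332 ± 805) were highest in EV, did not differ beyond their spread, and were followed by POLR2G at 3444 ± 479. Over the exons of the canonical transcript, POLR2G (8282 ± 1151) and POLR2L (7347 ± 367) were highest and within their spread of each other, above POLR2C (5645 ± 420), POLR2I (5435 ± 1177) and POLR2J (5332 ± 805), which did not differ beyond theirs. By both lengths POLR2D and POLR2F were the lowest of the 12 in EV.

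In PRL3, POLR2L had 1700 ± 166, POLR2C 1601 ± 167, POLR2A 1263 ± 136 and POLR2G 994 ± 152 per kb of the union of exons. Per kb of the canonical transcript they had 2186 ± 213, 3327 ± 346, 1672 ± 181 and 2391 ± 367 (SD, n = 3). POLR2C was thus the highest of the 12 by the canonical length, and POLR2G lay below POLR2A by the first length and above it by the second.

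Dividing each small subunit's reads by the large subunit's reads in the same library gives a measure that no scaling factor can move. Against POLR2A, the ratio was lower in every PRL3 library than in every EV library for 6 of 10 small subunits (POLR2E, POLR2G, POLR2H, POLR2I, POLR2J and POLR2L), higher for POLR2D, and overlapping for POLR2C, POLR2F and POLR2K. Of all other protein-coding genes, 14.7% were lower and 46.5% higher by the same measure. POLR2G gave 0.436, 0.357 and 0.389 reads per POLR2A read in EV and 0.177, 0.191 and 0.168 in PRL3. Its mean log2 ratio thus differed by -1.14, the widest gap of the 10. POLR2L gave 0.393, 0.334 and 0.444 in EV and 0.182, 0.177 and 0.185 in PRL3, a difference of -1.09. POLR2D went the other way, with 0.188, 0.134 and 0.193 in EV and 0.284, 0.208 and 0.230 in PRL3, a difference of 0.49.

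Against POLR2B the separation was weaker. POLR2G, POLR2J, POLR2K and POLR2L were lower in every PRL3 library, POLR2D and POLR2F were higher, and 4 overlapped, beside 4.65% of protein-coding genes lower and 57.8% higher. The large subunits themselves overlapped when divided by each other, with 0.850, 0.407 and 0.553 POLR2B reads per POLR2A read in EV and 0.481, 0.434 and 0.515 in PRL3 (exact permutation p = 0.5). Each ratio with separate groups had an exact two-sided permutation p of 0.1, the smallest possible, and 0.15 after Benjamini-Hochberg adjustment over the 24 ratios computed, so none could pass 0.05.

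**Figure D3:**
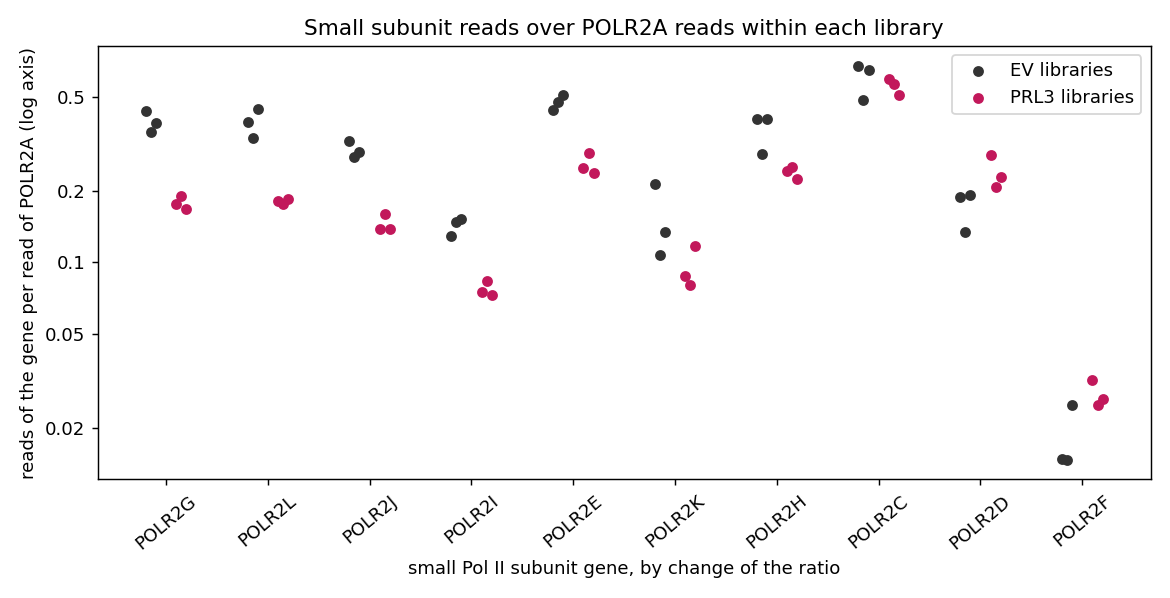
Reads of each small subunit divided by POLR2A reads in the same library (y axis, log scale), 1 point per library, EV and PRL3 side by side. For 6 subunits the 3 PRL3 points lie below the 3 EV points, POLR2D lies above, and POLR2C, POLR2F and POLR2K overlap.

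Of the 10 small-subunit genes, 6 are short and heavily read, and other genes of that kind were mostly lower too. Of 754 other protein-coding genes up to 10 kb long and above 3000 normalized counts, 571 (75.7%) fell, with a median log2 fold change of -1.17. The small subunits in that class, POLR2C, POLR2E, POLR2G, POLR2H, POLR2J and POLR2L, fell in 6 of 6 cases, a count to be read against that share. Among 649 genes up to 10 kb long and read at 1000 to 3000, which is the class of POLR2I and POLR2K, 391 fell and the median was -0.74. Set against the median of its own class of length and level, 8 of 10 small subunits were lower, and the median difference over all 10 was -0.45. POLR2I was farthest below at -0.82 and POLR2G followed at -0.63. POLR2H differed by only -0.07, and POLR2C (0.40) and POLR2D (0.08) lay above. POLR2A was -0.11 from its class and POLR2B -0.76.

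Mediator genes lay mostly above their classes of length and level. Below the class median were 11 of 33, and the median difference was 0.33. It was 0.76 in the middle module (1 of 9 below) and 0.50 in the head (4 of 11 below), but 0.17 in the tail (2 of 5 below), 0.07 in the kinase module (3 of 7 below) and -0.61 for MED14. Across the 12 large and small polymerase subunits, log2 fold change had a Spearman rho of 0.80 with gene length. These include POLR2F, whose level is uncertain and which was both the longest (89309 bases) and the highest in log2 fold change (-0.03). The rho with gene length was 0.19 over the 33 Mediator genes and 0.30 over 14443 protein-coding genes. With exonic length it was 0.82 over the 12 subunits, 0.36 over the Mediator genes and 0.28 over the protein-coding genes. All points share the same 6 libraries, and length goes with level and base composition, so these values are descriptions.

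**Figure D4:**
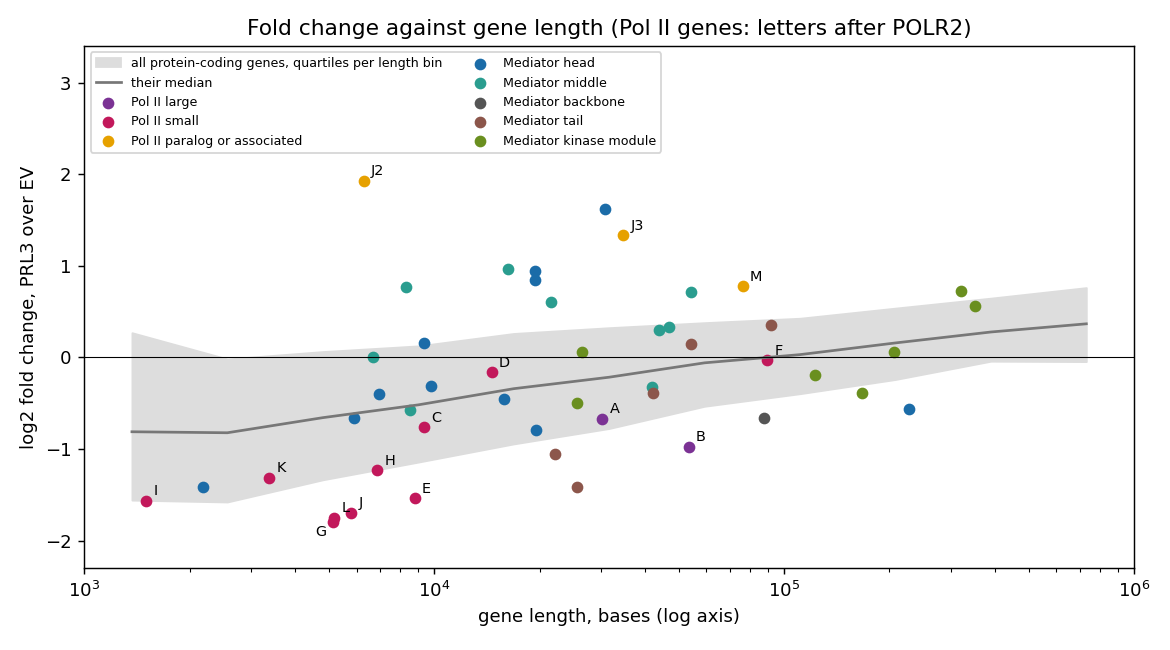
Log2 fold change (PRL3 over EV, y axis) against gene length (x axis, bases, log scale) for the members, coloured by class, over the median (line) and quartiles (band) of all protein-coding genes tested. The short small-subunit genes sit low at the left, POLR2G, POLR2L and POLR2J under the band, and most Mediator genes of like length lie higher, MED11 excepted at -1.41.

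The paralogs of POLR2J rose while POLR2J fell. POLR2J2 and POLR2J3 are near-identical copies of the RPB11 gene on chromosome 7, and reads matching several copies were not counted, so the division of reads among them is uncertain. POLR2J2 (102665368 to 102671663, minus strand) had 135, 79.4 and 167 normalized counts in EV and 493, 530 and 435 in PRL3. These groups were wide apart (log2 fold change 1.93, SE 0.28, edgeR adjusted p = 0.000144). POLR2J3 (102537918 to 102572653, minus strand) had 988, 1237 and 1348 in EV and 3123, 2924 and 2969 in PRL3, again without overlap (1.34, SE 0.16, adjusted p = 3.55e-05). Other annotated genes on the same strand overlap 79.1% of the exonic length of POLR2J3 and 21.1% of that of POLR2J2. POLR2M, whose product Gdown1 binds the polymerase and restrains it until Mediator acts, rose by 0.78 (SE 0.26, adjusted p = 0.0275), and 20.3% of its exons overlap a read-through gene. That call did not pass without EV library B2 (adjusted p = 0.0664), PRL3 library B9 (0.0828) or PRL3 library B11 (0.103). Nor did it pass with all uniquely aligned reads as the depth (0.30, adjusted p = 0.362).

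In the Mediator head, 4 of 11 members fell (36.4%), 3 rose (27.3%) and 4 did not pass. The counts of this and the other modules stand beside 31.6% lower and 15.2% higher of protein-coding genes, and the share lower in the head was near that background. MED17, a scaffold subunit of the head, gave the strongest rise of the 33 Mediator genes. It lies on chromosome 11 at 93784227 to 93814963 (plus strand, ENSG00000042429) and had 1549, 1387 and 2110 normalized counts in EV and 5063, 4972 and 5464 in PRL3. The lowest PRL3 library was above the highest EV library by a wide margin, a 3.07-fold rise (log2 fold change 1.62, SE 0.17, edgeR adjusted p = 1.88e-05). Other genes on the same strand overlap 13.0% of its exonic length. MED6, a conserved head subunit, had 974, 673 and 715 in EV and 1602, 1351 and 1582 in PRL3. Its groups were also separate (0.94, SE 0.18, adjusted p = 0.00118), and MED28 rose by 0.85 (adjusted p = 0.000486). With all uniquely aligned reads as the depth neither call passed (MED6 0.46, adjusted p = 0.0734, and MED28 0.37, adjusted p = 0.0842).

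MED11 fell most in the head, and its product pairs with MED22 in that module. It had 1788, 1434 and 1112 in EV and 495, 660 and 471 in PRL3, with no overlap (log2 fold change -1.41, SE 0.21, edgeR adjusted p = 0.000172). MED30, a metazoan head subunit, had 909, 681 and 730 in EV and 264, 551 and 520 in PRL3 (-0.80, SE 0.26, adjusted p = 0.0242). Its groups were separate, but PRL3 library B9 stood far below the other PRL3 libraries, and the call did not pass without it (adjusted p = 0.103) or without EV library B1 (0.0711). MED8 (-0.66) and MED27 (-0.56) also fell, the latter not without PRL3 library B9 (adjusted p = 0.0787) or B11 (0.0638). MED20 (-0.46), MED18 (-0.40), MED22 (-0.31) and MED29 (0.16) did not pass. However, MED20 did without EV library B3 (adjusted p = 0.0119) and MED22 without EV library B1 (0.0385). MED20 and MED18 also passed as lower with RLE scaling (adjusted p = 0.0456 and 0.0481) and with DESeq2 (0.0351 and 0.0376). With library size alone 1 head gene was lower, with upper-quartile scaling 2, with RLE or DESeq2 6, and with all uniquely aligned reads 7.

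In the middle module 4 of 9 members rose (44.4%) and 1 fell (11.1%). MED9 had 1545, 1615 and 2191 normalized counts in EV and 3461, 3649 and 3372 in PRL3. These groups were clearly apart (log2 fold change 0.97, SE 0.17, edgeR adjusted p = 0.000448). MED31, a small subunit conserved from yeast, had 1659, 1236 and 1691 in EV and 2040, 2692 and 3101 in PRL3 (0.77, SE 0.19, adjusted p = 0.00509), with separate groups and a wide spread in PRL3. MED26, through which elongation factors are recruited, rose by 0.72, and other genes on its strand overlap 41.9% of its exons. MED7, the hinge subunit, rose by 0.61 (adjusted p = 0.0419), a call that did not pass when EV B2, EV B3 or any 1 PRL3 library was left out (adjusted p from 0.0676 to 0.180).

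MED19 was the middle subunit that fell, with 1946, 1990 and 1729 in EV and 1323, 1374 and 1101 in PRL3. The groups did not overlap (log2 fold change -0.58, SE 0.16, edgeR adjusted p = 0.0104), and the call did not pass without PRL3 library B11 (adjusted p = 0.0786). Nor did it pass with upper-quartile scaling (-0.40, adjusted p = 0.0538) or library size alone (-0.08, adjusted p = 0.694), each leaving 0 middle genes lower. MED1, the subunit that binds nuclear receptors, gave 0.33, MED21 0.30, MED10 0.01 and MED4 -0.32, none past the threshold. Without EV library B1, MED1 (0.46, adjusted p = 0.0319) and MED21 (0.49, adjusted p = 0.0257) passed, which brought the module to 6 higher, as did upper-quartile scaling. With all uniquely aligned reads 1 was higher and 2 were lower, and MED31 (0.30, adjusted p = 0.239) and MED26 (0.25, adjusted p = 0.287) did not pass. With TMM members of the same module moved apart, from -0.58 to 0.97.

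MED14, the backbone, fell. Its gene on chromosome X (40648305 to 40735858, minus strand, ENSG00000180182) had 3883, 3417 and 3331 normalized counts in EV and 2290, 2114 and 2345 in PRL3. The groups were separate and each was tight (log2 fold change -0.66, SE 0.14, edgeR adjusted p = 0.00266). With library size alone it gave -0.16 (adjusted p = 0.389).

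In the tail as grouped here, with TMM, MED16 and MED25 fell and none rose. With MED27 to MED30 counted in the tail instead of the head, 4 tail members were lower and 1 was higher. The head then had 2 lower and 2 higher, and neither module's median log2 fold change moved. MED16 lies on chromosome 19 at 867630 to 893218 (minus strand, ENSG00000175221) and had 3328, 5083 and 4040 in EV and 1516, 1791 and 1368 in PRL3. Every PRL3 library was under every EV library, a 2.66-fold fall (log2 fold change -1.41, SE 0.18, edgeR adjusted p = 5.59e-05). MED25, a target of viral and ETS-family activators, is on the same chromosome (49818282 to 49840383, plus strand) and had 1694, 2683 and 1697 in EV and 990, 1011 and 921 in PRL3. EV library B2 was the highest of all 6 libraries for both genes, and the other EV libraries also exceeded every PRL3 library (MED25 -1.06, SE 0.20, adjusted p = 0.000793). MED24 (-0.39), MED23 (0.15) and MED15 (0.35) did not pass, though MED24 did without EV library B1 (adjusted p = 0.0337). MED24 also passed as lower with RLE (adjusted p = 0.0454), DESeq2 (0.0310), limma-voom (0.0441) and all uniquely aligned reads (0.00116). MED15 passed as higher with upper-quartile scaling (0.52, adjusted p = 0.0264). With library size alone MED15 (0.84, adjusted p = 0.00139) and MED23 (0.64, adjusted p = 0.0121) were higher.

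In the kinase module MED12 fell (14.3% of 7 members), while MED12L and MED13L rose (28.6%). MED12, which activates the kinase, had 4434, 4852 and 4623 in EV and 3517, 3206 and 3153 in PRL3 (log2 fold change -0.49, SE 0.14, edgeR adjusted p = 0.0119). Its paralog MED12L had 442, 514 and 541 in EV and 690, 781 and 735 in PRL3 (0.56, SE 0.18, adjusted p = 0.0238). Neither gene's groups overlapped, but neither call passed without PRL3 library B10 (adjusted p = 0.0525 and 0.104) or B11 (0.0725 and 0.0793). MED13L, 1 of the paralogs that link the kinase module to the core complex, had 6986, 5948 and 6496 in EV and 11416, 10385 and 10436 in PRL3. It rose without overlap (0.73, SE 0.14, adjusted p = 0.00117), while MED13 gave -0.19 (adjusted p = 0.384). With all uniquely aligned reads as the depth, MED13L gave 0.25 (adjusted p = 0.259), MED12L 0.09 (0.756) and MED13 -0.68 (0.00795), so that MED13 passed and MED13L and MED12L did not. With library size alone MED12 gave 0.0020 (adjusted p = 0.992). The kinases CDK8 (-0.39) and CDK19 (0.07) and cyclin C, CCNC (0.06), did not pass with TMM. CDK8 passed as lower with all uniquely aligned reads (-0.87, adjusted p = 0.00174), and CDK19 as higher with library size alone (0.55, adjusted p = 0.0264).

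Ratios within a library, which no scaling moves, were taken for each paralog pair of the kinase module. MED12 gave 10.0, 9.44 and 8.54 reads per MED12L read in EV and 5.10, 4.11 and 4.29 in PRL3, a difference in mean log2 ratio of -1.06. For MED13 over MED13L the ratios were 0.811, 0.684 and 0.654 in EV and 0.396, 0.354 and 0.389 in PRL3, a difference of -0.91. For CDK8 over CDK19 they were 2.25, 1.56 and 1.69 in EV and 1.33, 1.29 and 1.37 in PRL3, a difference of -0.44. In all 3 pairs every PRL3 library was below every EV library, with an exact permutation p of 0.1 and an adjusted p of 0.15 each. Of all other protein-coding genes, 59.2% were likewise lower relative to MED12L, 68.0% relative to MED13L and 39.1% relative to CDK19, so a ratio below EV was common for these denominators.

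**Figure D5:**
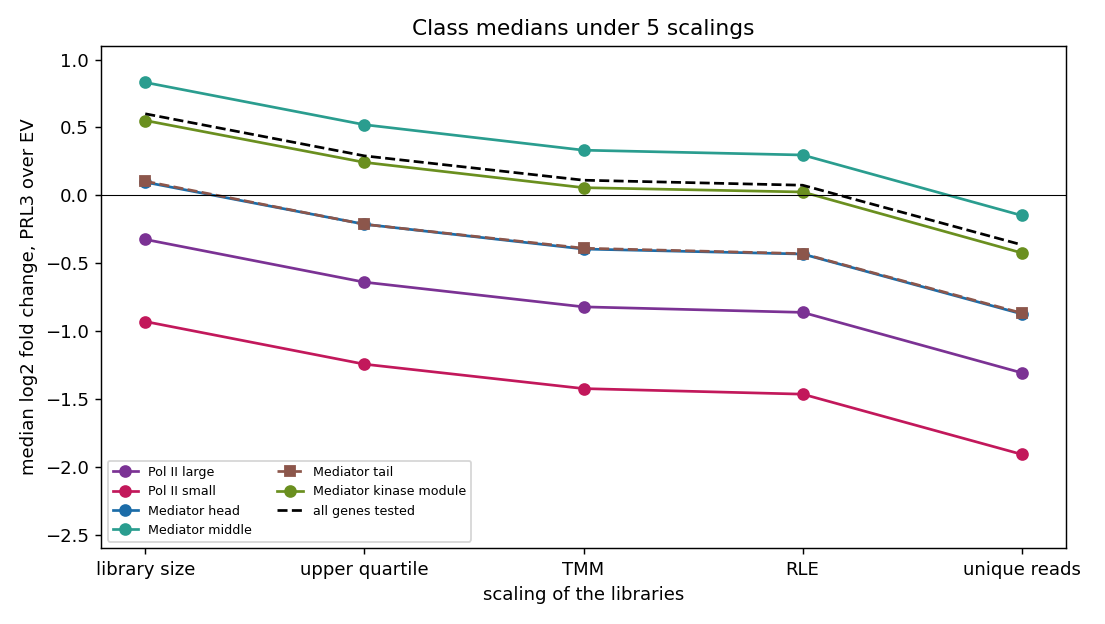
Median log2 fold change (PRL3 over EV, y axis) of 6 classes under 5 scalings of the libraries (x axis), with the median of all genes tested as a dashed black line. The polymerase large and small subunits lie below 0 under each of the 5 scalings, whereas the head and tail medians lie above 0 with library size alone and the middle and kinase medians below 0 with all uniquely aligned reads.

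Other parts of the transcription machinery were counted in the same fit, from lists chosen by complex, and their counts stand beside the 31.6% lower and 15.2% higher of protein-coding genes. Of 17 general transcription factor genes tested (of 18), 5 fell (29.4%) and 2 rose (11.8%), shares near that background, with a median of -0.32. GTF2H5 (-1.22) and CDK7 (-1.10), both of TFIIH, fell most, while TBP (0.56), the TATA-binding protein, and CCNH (0.53), the cyclin partner of CDK7, rose. Among 14 TFIID TAF genes 2 fell (TAF10 -0.84, TAF6 -0.67) and 2 rose (TAF8 0.68, TAF3 0.49), with a median of -0.09. Of 19 subunits particular to polymerases I and III, 7 fell (36.8%) and 4 rose (21.1%), with a median of 0.03. POLR3K (-1.16) and POLR1C (-0.96) fell most there, and POLR1E (0.51) and CRCP (0.49) rose. Of 12 factors that assemble or import the polymerase, 7 fell (58.3%) and 2 rose (16.7%), with a median of -0.66. RUVBL2 (-1.63), an ATPase of the R2TP chaperone complex, and UXT (-1.51), a prefoldin-like protein, fell most, and SLC7A6OS (0.51) and GPN2 (0.50) rose. The median of these assembly factors was below that of the general factors, the TAFs and the polymerase I and III subunits, and above the -1.42 of the small polymerase II subunits; the differences between lists were not tested.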

How the data were processed

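A375 cells carrying an empty vector (EV, libraries B1, B2 and B3) or PRL3 (B9, B10 and B11) were compared by 4sU-seq. Per the submitters' notes and the study's methods, the authors checked reads with FastQC 0.11.3, aligned them to GRCh38 with STAR 2.5.1b, and deposited HTSeq 0.6.1 read counts per gene (reverse-strand setting, Ensembl annotation 91). These whole-number counts are not normalized. Reads in the summary lines (outside exons, ambiguous, multiply aligned) were never tested as features and stayed out of library sizes, except in the alternative whose depth is all uniquely aligned reads. Those outside exons were 28.7% to 69.1% of uniquely aligned reads per library.

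Symbols, biotypes and coordinates came from GENCODE 44 (GRCh38), in which 57532 of 58243 identifiers matched. Counts were filtered with filterByExpr, scaled by TMM (factors 0.816 to 0.894 in EV, 1.12 to 1.25 in PRL3) and tested with edgeR 4.0.16 (quasi-likelihood F test, design of group only, R 4.3.3), with Benjamini-Hochberg adjustment over all genes and a threshold of 0.05. The standard error is the log2 fold change divided by the square root of F. For normalized counts, each count was divided by its library's effective size, then multiplied by the mean effective size. Values per kb use the union of exons or, where said, the canonical transcript. The fit was tested on simulated data with 200 changed genes. Far more genes were called in the real data, so the simulation could not test the choice of scaling. Single values and within-library ratios of counts used two-sided exact permutation tests. Promoters came from RefSeq (GRCh38.p14).

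Named genes were POLR2A, POLR2B, PTP4A3, the 2 called members of largest absolute fold change per class and direction, and the same for each list of related genes; values per library of POLR2D and POLR2F were added after they were seen. The members and lists were chosen with earlier results of these data known, and the classes of length and level, the counts of groups without overlap and the ratios were added to the tests. Alternatives were other scalings (RLE, upper quartile, library size, all uniquely aligned reads), DESeq2 1.42.0, limma-voom 3.58.1, other filters, a threshold of 0.01, other module assignments and leaving out each library. Same-group libraries differed beyond sampling noise, so each counted once.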

Additional observations from a re-analysis of the deposited data

Results flagged for a closer look

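Reads outside annotated exons, which entered the comparisons above only through the depth of 1 alternative scaling (all uniquely aligned reads), made up 66.3% of uniquely aligned reads in the PRL3 libraries (62.8% to 69.1%), against 33.3% in the EV controls (28.7% to 41.1%), so the groups did not overlap. The files give no gene for these reads, so how many came from introns of polymerase or Mediator genes was not analysed here.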

How the results depend on the processing

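No paired analysis was possible because the groups share 0 replicate numbers. The count of small polymerase subunits that fell was 8 in the TMM fit, 7 with library size alone, 9 with all uniquely aligned reads and 8 in each fit without 1 library. Library size alone gave 3078 genes lower and 9514 higher (5426 and 4783 with TMM), members 11 and 19, Mediator 3 and 16, and medians of -0.93 (small), -0.33 (large), 0.10 (head), 0.83 (middle), 0.10 (tail), 0.55 (kinase) and 0.50 (Mediator). All uniquely aligned reads gave 8473 genes lower and 1952 higher, 4 members higher, Mediator 16 and 2, and medians of -1.91, -1.31, -0.87, -0.15, -0.87, -0.42 and -0.47 in that order. Genes lower among those called were 53.1% with TMM, 41.3% by upper quartile, 24.4% by library size and 81.3% by all uniquely aligned reads, and the median of all genes was 0.11, 0.29, 0.60 and -0.36. Upper-quartile scaling and protein-coding genes alone each gave small -1.24, head -0.21, middle 0.52, tail -0.21, kinase 0.24 and Mediator 0.19, and the former left 5 Mediator genes lower. A threshold of 0.01 left 2719 genes higher. With the paralogs and POLR2M among the small subunits, their median was -1.23 and 3 were higher. Without 1 library, genes lower ranged from 4306 to 5869 and higher from 3200 to 5940, members lower from 16 to 20 and higher from 9 to 14, the small median from -1.54 to -1.30, the kinase and Mediator medians from -0.18 to 0.089 and from -0.18 to 0.064.

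Signs changed as follows, and the cause was not tested. With all uniquely aligned reads: CCNC -0.42, CDK19 -0.41, MED1 -0.15, MED10 -0.47, MED15 -0.12, MED21 -0.18, MED23 -0.34 and MED29 -0.31. With library size alone: CDK8 0.10, MED12 0.0020, MED13 0.31, MED18 0.10, MED20 0.039, MED22 0.17, MED24 0.10, MED4 0.18, POLR2D 0.33 and POLR2F 0.46. POLR2D gave 0.020 with upper-quartile scaling and 0.019 with protein-coding genes alone, where POLR2F gave 0.14 and 0.15. POLR2F gave 0.012 with at least 10 counts in every library. MED10 gave -0.032 with RLE and DESeq2 and -0.011 with limma-voom. Without 1 library, MED10 ranged from -0.10 to 0.22, CCNC from -0.18 to 0.37 and POLR2F from -0.17 to 0.12.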

Other observations

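A further 31 symbols that begin with POLR2 or MED belong to pseudogenes or long non-coding RNAs and are not members. Of these, 11 passed the low-count filter, 5 rose in PRL3 and 0 fell (edgeR, adjusted p under 0.05), beside 27.5% higher and 9.06% lower among all 9441 genes tested that are not protein-coding. They were MED15P8 (log2 fold change 2.47), MED28P1 (1.51), MED28-DT (1.20), MED15P6 (1.06) and MED15P9 (0.85). MED28-DT, a divergent transcript beside MED28, averaged 66.5 ± 26.0 normalized counts in EV and 154 ± 26.3 in PRL3 (SD, n = 3; SE of the log2 fold change 0.36, edgeR adjusted p = 0.0174), and MED28 itself rose by 0.85. Pseudogenes share sequence with their parent genes, so their reads are uncertain.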
